A study of Schmidtea mediterranea with 14 samples.

Results

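The transcripts described here encode the planarian lipoprotein receptors *ldlr-1* (dd_Smed_v6_9829_0_1), *ldlr-2* (dd_Smed_v6_5596_0_1) and *vldlr-1* (dd_Smed_v6_1510_0_1). They were named by identity, with earlier results of these data known, as 3 of the 28069 transcripts counted. RNA came from uninjured, whole *Schmidtea mediterranea* of the asexual clonal line CIW4, a flatworm whose pluripotent stem cells (neoblasts) replace every tissue. The groups were *apob-S* (severe, 4 libraries), *apob-M* (mild, 4 libraries) and control (6 libraries). *apob-S* and *apob-M* animals had eaten double-stranded RNA against both *apob-1* and *apob-2*, which encode planarian apolipoprotein B, whereas control animals had eaten *egfp* double-stranded RNA. All animals had 3 feedings and were then starved for 7 days, and 5 to 6 animals were pooled for each library. *apob-M* and *apob-S* differ in how severe the phenotype (loss of pigment) had become, so those animals were sorted after the same treatment rather than assigned to it.

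Lipoprotein receptors sit in the plasma membrane, bind apolipoproteins on lipoprotein particles through cysteine-rich class A repeats, and carry the particles into the cell by endocytosis. In mammals the transcription factor SREBP2 switches on genes of sterol uptake and synthesis when cell sterol is low. Mammalian VLDLR binds triglyceride-rich particles and is most abundant in muscle, fat and brain. The planarian names follow homology, and the ligands of the 3 receptors were not measured here.

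Coding stretches of the receptors are shown to identify the transcripts behind the values. They were read from the study's clone sequences, of which the first 399 bases were used. For *ldlr-1* the stretch is the first class A repeat, codons 25 to 58 of the open frame, with its 6 cysteine codons in capitals. For *ldlr-2* it is the most hydrophobic run of 19 codons, in capitals, with 10 codons on either side, a stretch of the length that crosses a membrane. For *vldlr-1* it is the last 40 codons, with the stop codon in capitals, on the reverse complement of the clone sequence. Its frame was taken as the longest stretch open from the start of that strand to a stop codon (63 codons).
ldlr-1: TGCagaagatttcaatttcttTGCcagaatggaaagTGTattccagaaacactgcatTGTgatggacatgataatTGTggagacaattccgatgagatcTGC
ldlr-2: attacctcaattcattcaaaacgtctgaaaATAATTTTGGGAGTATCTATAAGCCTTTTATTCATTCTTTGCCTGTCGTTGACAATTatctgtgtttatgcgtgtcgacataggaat
vldlr-1: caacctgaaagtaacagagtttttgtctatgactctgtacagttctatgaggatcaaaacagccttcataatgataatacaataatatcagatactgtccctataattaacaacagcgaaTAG
The repeat of *ldlr-1* was found by a search for the cysteine spacing of a ligand-binding repeat, so that spacing is not a separate observation. The stretches of *ldlr-2* and *vldlr-1* come from other parts of the coding frame, so the 3 are not aligned with each other. *ldlr-1* shared no run of 30 bases with the *ldlr-2* or *vldlr-1* sequence used. Because these sequences cover different parts, this does not show whether the full transcripts share one, and *ldlr-2* was not compared with *vldlr-1*. Each receptor was the only counted transcript of its assembly component. Reads were mapped to unique transcripts only, so this does not show whether the assembly holds other isoforms.

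Libraries held 16839133 to 22077694 counts in *apob-S*, 18285522 to 22070116 in *apob-M* and 17476691 to 23039326 in controls, and 18436 transcripts passed the filter on low values (1 CPM or more, reached in 4 or more libraries) and entered the test. CPM scales a count to a fixed library total, here normalized by the trimmed mean of M-values (TMM). The knockdown was present in every treated library: *apob-1* averaged 288.4 ± 41.6 CPM in *apob-S*, 266.8 ± 32.8 in *apob-M* and 1414 ± 184 in controls (SD, n = 4, 4 and 6). *apob-2* averaged 374.1 ± 111 CPM in *apob-S*, 439.2 ± 89.6 in *apob-M* and 1187 ± 260 in controls. In *apob-S* replicate 2 and *apob-M* replicate 3, dd_Smed_v6_4_1_1 alone took 5.36% and 7.28% of the counts; without both libraries no receptor's edgeR call changed. Cell type markers differed between groups as well. The early epidermal progeny marker *prog-1* was at 171.4 CPM in *apob-S*, 246.7 in *apob-M* and 287.5 in controls, and the pharynx marker *laminin* at 31.16, 44.98 and 60.84 CPM in the same order of groups; both fell in *apob-S* and in *apob-M* against control. The neoblast marker *tgs-1* rose in both (10.29 CPM in *apob-S*, 10.55 in *apob-M*, 6.591 in controls), and the neuronal marker *ChAT* rose in *apob-M* (103.1 CPM, against 88.38 in controls; 90.95 in *apob-S*). The intestine marker *ctsla* was at 1804 CPM in *apob-S*, 1846 in *apob-M* and 1844 in controls. *piwi-1*, expressed by all neoblasts, was at 429.1, 408.5 and 403.6 CPM in the same order. Neither passed the test, although for *piwi-1* every *apob-S* library was above every control (1.06-fold, adjusted p = 0.0623, edgeR). The part of these shifts in the receptors' values was not tested, and in RNA from whole animals more cells that express a receptor and more RNA per cell cannot be told apart.

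*ldlr-1* rose in both knockdown groups and was highest in the severe one. It was at 115.3, 112.3, 120.5 and 122.5 CPM in the *apob-S* libraries and at 90.19, 77.69, 86.26 and 78.05 CPM in the *apob-M* libraries. In controls the lowest value was 31.23, the median 33.14 and the highest 37.16 CPM. Every *apob-S* library was thus above every *apob-M* library, and every *apob-M* library above every control. Group means were 117.7 ± 4.67 CPM in *apob-S*, 83.05 ± 6.19 in *apob-M* and 33.43 ± 2.03 in controls (SD). These values rest on 2088 to 2616 counts per library in *apob-S*, 1479 to 1746 in *apob-M* and 534 to 797 in controls, where counting error alone came to 3.54 to 4.33% of a value.

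The rise was 3.52-fold in *apob-S* against control (95% confidence interval 3.26 to 3.79; log2 fold change 1.81 ± 0.0517 SE, adjusted p = 1.81e-14, edgeR quasi-likelihood test with Benjamini-Hochberg adjustment over all tested transcripts). In *apob-M* it was 2.48-fold (2.3 to 2.68; log2 fold change 1.31 ± 0.052 SE, adjusted p = 3.38e-12). Between the knockdown groups themselves *ldlr-1* was 1.42-fold higher in *apob-S* than in *apob-M* (1.31 to 1.54; log2 fold change 0.50 ± 0.0562 SE, adjusted p = 8.81e-06). The exact permutation test of log2 CPM gave 0.00952 for each comparison with control and 0.0286 between the knockdown groups, in each case the smallest p the number of libraries allows (two-sided). *ldlr-1* was thus among the transcripts with the strongest evidence of change in the data set. It ranked 3rd of 18436 by p in *apob-S* and 6th in *apob-M*, while its log2 fold change lay at the 99.77th percentile in *apob-S* and the 99.83rd in *apob-M*. A called rise of at least 2-fold was seen for 131 transcripts in *apob-S* and 35 in *apob-M*, and the median size of a called log2 change was 0.317 and 0.263. Both comparisons with control used the same 6 control libraries.

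**Figure D1:**
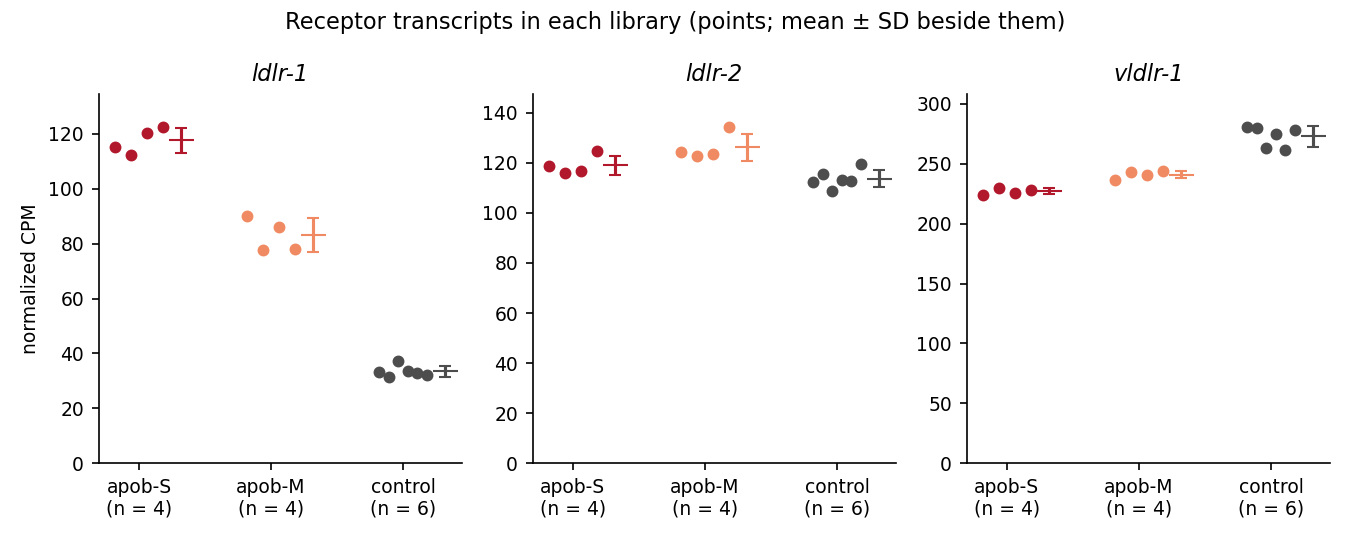
Normalized CPM (linear axis from 0) of each receptor in each library, as points, for *apob-S*, *apob-M* and control, with the mean ± SD to the right of the points. For *ldlr-1* the 4 *apob-S* libraries (112.3 to 122.5 CPM) and the 4 *apob-M* libraries (77.69 to 90.19) lie above all 6 controls (31.23 to 37.16), whereas the groups lie close together for *ldlr-2* and in the opposite order for *vldlr-1*.

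*vldlr-1*, the most abundant of the 3, fell in both knockdown groups, by a much smaller amount. It was at 224.4, 230.1, 225.5 and 228.2 CPM in *apob-S* and at 236.6, 242.9, 240.9 and 243.8 CPM in *apob-M*. Controls ran between 261.2 and 280.7 CPM with a median of 276.3. All 8 knockdown libraries were below all 6 controls, and all *apob-S* libraries below all *apob-M* libraries. Means were 227 ± 2.59 CPM in *apob-S*, 241 ± 3.19 in *apob-M* and 273 ± 8.47 in controls (SD). The level was 0.832-fold that of control in *apob-S* (95% confidence interval 0.793 to 0.872, log2 fold change -0.27 ± 0.0328 SE, adjusted p = 3.83e-06, edgeR). It was 0.883-fold in *apob-M* (0.842 to 0.926, log2 fold change -0.18 ± 0.0328 SE, adjusted p = 0.000796, edgeR), although that call was lost with edgeR's exact test (adjusted p = 0.0622). The exact permutation p was 0.00952 in both. *apob-S* against *apob-M* did not pass (0.942-fold, 0.894 to 0.992, adjusted p = 0.135, edgeR), although the libraries did not overlap and the exact permutation test of this transcript alone gave its smallest possible p of 0.0286.

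*ldlr-2* differed least. The *apob-S* libraries were at 118.8, 116, 116.6 and 124.6 CPM and the *apob-M* libraries at 124.3, 122.6, 123.5 and 134.3 CPM. Controls ran between 108.9 and 119.6 CPM with a median of 113. The 4 *apob-M* libraries were above all controls, whereas only 1 *apob-S* library was. Means were 119 ± 3.92 CPM in *apob-S*, 126.1 ± 5.46 in *apob-M* and 113.7 ± 3.58 in controls (SD). The rise in *apob-M* was 1.11-fold (95% confidence interval 1.05 to 1.17, log2 fold change 0.15 ± 0.0397 SE, adjusted p = 0.0146, edgeR). It did not hold without *apob-M* replicate 4, the library at 134.3 CPM (log2 fold change 0.12, adjusted p = 0.069), nor with edgeR's exact test (adjusted p = 0.12) or library size alone as the scaling (adjusted p = 0.103). In *apob-S* the difference from control did not pass the test (1.05-fold, 0.987 to 1.11, adjusted p = 0.254, edgeR; exact permutation p = 0.0667). *apob-S* against *apob-M* did not pass either (0.943-fold, 0.885 to 1.01, adjusted p = 0.251, edgeR; exact permutation p = 0.114).

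Of the 3 receptors, 2 passed the test in *apob-S* against control (1 higher, 1 lower), beside 29.3% of all tested transcripts (13.5% higher, 15.7% lower). In *apob-M* against control all 3 passed (2 higher, 1 lower), beside 15.3% of all (7.05% higher, 8.24% lower). With edgeR's exact test, the test that the study used, only *ldlr-1* passed in *apob-M* against control. That test called 2284 transcripts there in place of 2819. In *apob-S* against *apob-M* 1 passed, higher, beside 12% of all (5.17% higher, 6.86% lower). Libraries of *apob-S* and control did not overlap for 2 receptors, beside 22.1% of all transcripts (10.4% with *apob-S* higher, 11.7% lower). Those of *apob-M* and control did not overlap for 3, beside 12.5% of all (6.09% with *apob-M* higher, 6.44% lower). Between the knockdown groups 2 receptors did not overlap, beside 15.8% of all (7.04% with *apob-S* higher, 8.73% lower). With 3 members these counts are descriptions.

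**Figure D2:**
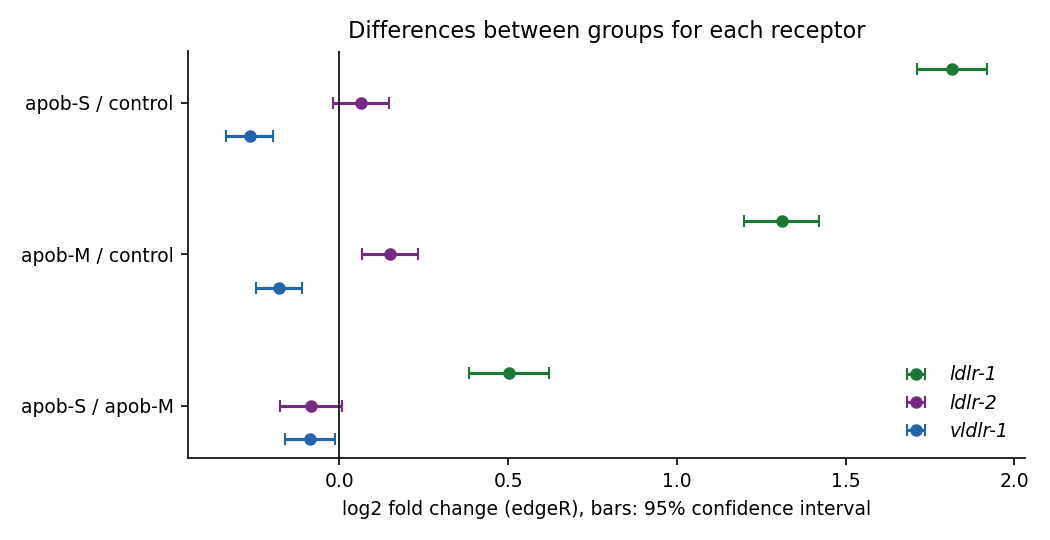
Log2 fold change (edgeR) of each receptor, with its 95% confidence interval, for *apob-S* over control, *apob-M* over control and *apob-S* over *apob-M*, from top to bottom. *ldlr-1* stands at 1.81, 1.31 and 0.50, *vldlr-1* lies below 0 in all 3 comparisons, and the interval of *ldlr-2* spans 0 except in *apob-M* against control.

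**Figure D3:**
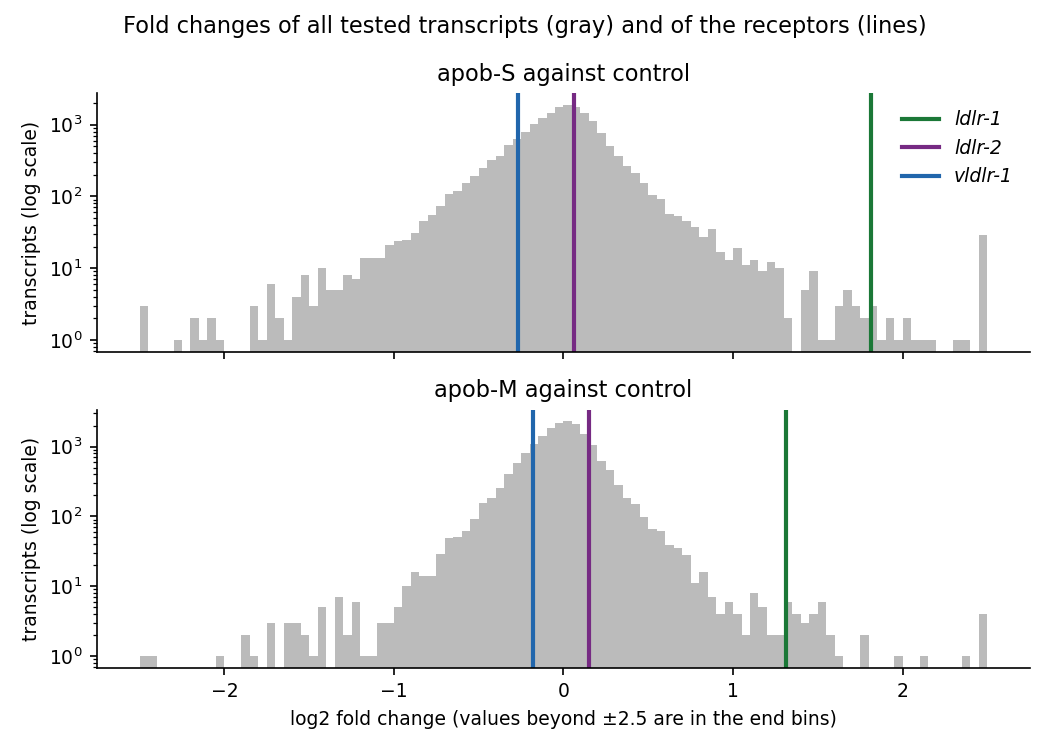
Number of tested transcripts (log axis) by log2 fold change against control in bins of 0.05, for *apob-S* (top) and *apob-M* (bottom), with a vertical line for each receptor; the end bins hold all larger changes. *ldlr-1* lies far out on the right tail in both, while *ldlr-2* and *vldlr-1* lie within the bulk of the distribution.

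Compared per kilobase of transcript, the order of the levels was *vldlr-1*, *ldlr-2*, *ldlr-1* in every library, so that no value of one receptor overlapped with that of another within a group. In *apob-S* the levels were 103 CPM per kb for *vldlr-1*, 49.43 for *ldlr-2* and 38.6 for *ldlr-1*, and in *apob-M* 109.3, 52.4 and 27.25. In controls they were 123.8, 47.26 and 10.97 CPM per kb. The gap between *ldlr-1* and *ldlr-2* thus narrowed with knockdown, while their order held. Over all 14 libraries, *vldlr-1* stood at the 94.3rd percentile of all tested transcripts by level per kb, *ldlr-2* at the 87.2nd and *ldlr-1* at the 73.8th. Of the RNA of the 3 receptors per length, *ldlr-1* made up 20.2 ± 0.594% in *apob-S*, 14.4 ± 1.11% in *apob-M* and 6.03 ± 0.478% in controls (SD). The share of *vldlr-1* was 53.9 ± 0.884%, 57.9 ± 0.886% and 68 ± 0.619% in the same groups, and that of *ldlr-2* 25.9 ± 0.513%, 27.7 ± 0.895% and 26 ± 0.577%. The summed level of the 3 differed little between groups. It was 191 ± 3 CPM per kb in *apob-S*, 189 ± 2.22 in *apob-M* and 182 ± 4.38 in controls (SD), a 1.05-fold and a 1.04-fold difference from control (exact permutation p = 0.00952 each). *apob-S* against *apob-M* gave a 1.01-fold difference (exact permutation p = 0.343).

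Whether the receptors responded differently from each other was tested on the ratio of their counts within each library, which does not depend on how libraries are scaled. The *ldlr-1* to *vldlr-1* ratio averaged -0.95 ± 0.0636 on the log2 scale in *apob-S*, -1.54 ± 0.125 in *apob-M* and -3.03 ± 0.118 in controls (SD). Each *vldlr-1* count was thus matched by 0.488 to 0.537 *ldlr-1* counts in *apob-S* and by 0.320 to 0.381 in *apob-M*, against 0.112 to 0.141 in controls. The differences were 2.08 between *apob-S* and control, 1.49 between *apob-M* and control and 0.59 between *apob-S* and *apob-M*. The *ldlr-1* to *ldlr-2* ratio averaged -0.02 ± 0.0442 in *apob-S*, -0.60 ± 0.144 in *apob-M* and -1.77 ± 0.125 in controls, with differences of 1.75, 1.16 and 0.59 in the same order of comparisons. In *apob-S* the 2 transcripts were therefore counted about equally often. The groups did not overlap in any of these 6 comparisons.

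The *ldlr-2* to *vldlr-1* ratio behaved otherwise. It averaged -0.93 ± 0.049 in *apob-S*, -0.94 ± 0.0552 in *apob-M* and -1.26 ± 0.0421 in controls (SD). It was 0.33 higher than in controls in each knockdown group and did not separate the knockdown groups (difference 0.0027, exact permutation p = 0.971). Over the 9 ratio tests, the exact permutation p was 0.00952 for all 6 comparisons with control (adjusted p = 0.0143) and 0.0286 between the knockdown groups in both ratios with *ldlr-1* (adjusted p = 0.0321), the smallest these group sizes allow. This last call was lost when any 1 *apob-S* or *apob-M* library was left out (adjusted p = 0.0643, exact permutation test), where the smallest possible p no longer passes.

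**Figure D4:**
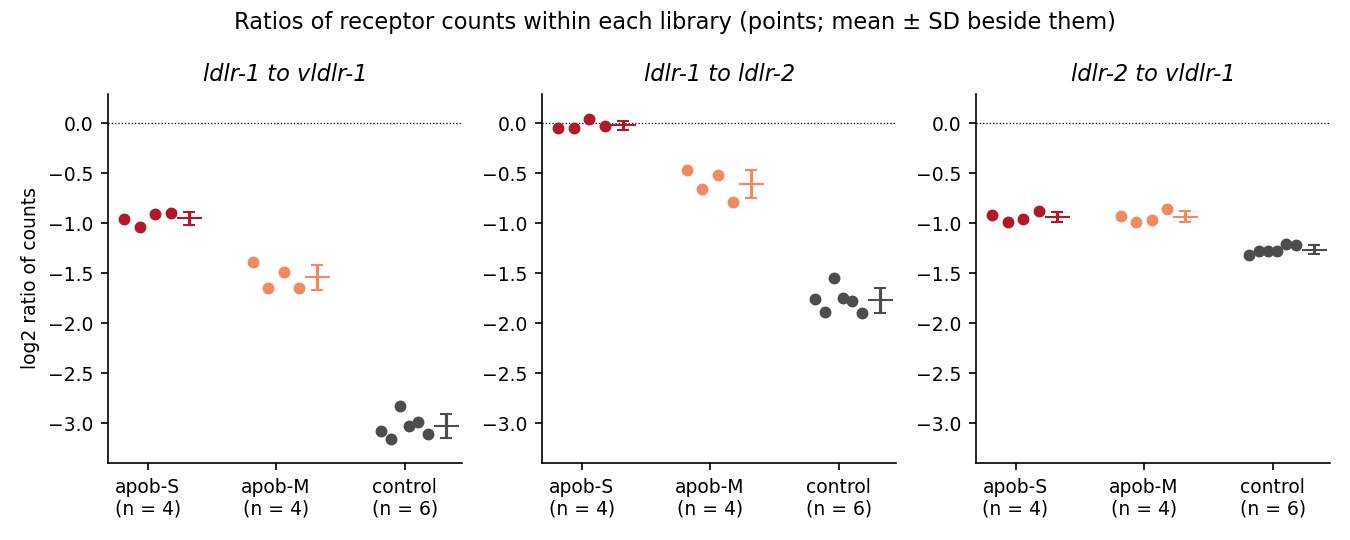
Log2 ratio of the counts of 2 receptors within each library, as points, for *apob-S*, *apob-M* and control, with the mean ± SD to the right; the dotted line marks equal counts. Both ratios with *ldlr-1* separate all 3 groups, whereas *ldlr-2* to *vldlr-1* has the knockdown groups together (-0.99 to -0.86) above controls (-1.32 to -1.21).

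Libraries of a group lay close together for all 3 receptors. The pooled SD within groups was 0.0856 on the log2 scale for *ldlr-1*, 0.0504 for *ldlr-2* and 0.0332 for *vldlr-1*, against a median of 0.133 over all tested transcripts. Only 0.727% of transcripts were as tight as *vldlr-1*, but this SD includes counting error, which is smaller for abundant transcripts. The biological coefficient of variation that edgeR fits beside counting error was 7.13% for *vldlr-1*, 6.73% for *ldlr-1* and 6.65% for *ldlr-2*. Its common value over all tested transcripts was 9.51%. The decrease of *vldlr-1* in both groups exceeded its pooled SD. It rested on 3890 to 5090 counts per library in *apob-S* and 4499 to 5196 in *apob-M*, against 4783 to 6480 in controls.

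Transcripts with the most similar profile were sought by the root mean square (RMS) difference of log2 CPM, each transcript centered on its own mean, over the 14 libraries. The nearest to *ldlr-1* was dd_Smed_v6_8670_0_1 (RMS difference 0.119), followed by dd_Smed_v6_6938_0_1 (0.162) and dd_Smed_v6_10262_0_1 (0.176, best human match TMEM56), against a median of 0.82 over all transcripts. dd_Smed_v6_8670_0_1 averaged 131.8 ± 0.903 CPM in *apob-S*, 110 ± 9.48 in *apob-M* and 39.69 ± 3.96 in controls (SD), which is the order of *ldlr-1*. The TMEM56 match averaged 30.99 ± 0.972 CPM in *apob-S*, 23.09 ± 1.55 in *apob-M* and 11.28 ± 0.726 in controls. The RMS difference grows with a transcript's own variation. The receptors' RMS deviation from their own mean was 0.799 for *ldlr-1*, 0.0761 for *ldlr-2* and 0.118 for *vldlr-1*. Distances are therefore not comparable between receptors, and a nearly flat transcript also lies near *ldlr-2*. *ldlr-2* and *vldlr-1*, whose levels varied less, had neighbors at smaller distances. For *ldlr-2* these were dd_Smed_v6_536_0_1 (0.0307), dd_Smed_v6_850_0_1 (0.0341) and, with a human match, dd_Smed_v6_6545_0_1 (0.0385), whose match MIB2 is a ubiquitin ligase of Notch signaling (median of all 0.184). For *vldlr-1* they were dd_Smed_v6_1752_0_1 (0.0254), dd_Smed_v6_591_0_1 (0.0338) and dd_Smed_v6_1269_0_1 (0.0368), whose match ENPP6 hydrolyzes choline-containing lipids (median of all 0.201). The receptors' own profiles differed by 0.76 between *ldlr-1* and *ldlr-2*, 0.915 between *ldlr-1* and *vldlr-1*, and 0.168 between *ldlr-2* and *vldlr-1*. The last value is small because both varied little, and does not mean that they moved together. In *apob-M* against control *ldlr-2* was higher and *vldlr-1* lower. No human match was held for the neighbours given without one.

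Other transcripts of receptor-mediated lipid uptake were taken by their best human match. Among them, the match of SREBF2, the gene of SREBP2, rose most in both groups (dd_Smed_v6_3641_0_1). It was at 197.7, 189.6, 182.5 and 185.7 CPM in *apob-S* and at 191.6, 182.9, 186.8 and 178.3 CPM in *apob-M*. Controls ran between 107.5 and 115.2 CPM with a median of 111.2. All 8 knockdown libraries were above all controls, and the knockdown groups overlapped. The log2 fold change was 0.76 ± 0.0368 SE in *apob-S* (adjusted p = 2.31e-11, edgeR) and 0.73 ± 0.0368 SE in *apob-M* (adjusted p = 1e-10, edgeR), with 0.03 ± 0.0407 SE between *apob-S* and *apob-M* (adjusted p = 0.719, edgeR). Whether *ldlr-1* and this transcript differed in their response was not tested.

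Human matches were held for only 1936 of the 18436 tested transcripts, so receptor homologs without one could not enter. These matches came in part from the study's own lists of transcripts changed by *apob* knockdown. Changed transcripts were thus more likely to enter, the match of SREBF2 included. Of those held, the matches of LRP11, LRP5 and LRP2BP moved little. That of LRP2BP was near the filter on low values, at 1.015 CPM in *apob-S*, 1.046 in *apob-M* and 1.109 in controls. The match of LRP11 rose in *apob-S* (dd_Smed_v6_10934_0_1, 0.19, adjusted p = 0.0415, edgeR; 0.15 in *apob-M*, adjusted p = 0.158). Neither the match of LRP5, a Wnt coreceptor (dd_Smed_v6_10112_0_1, 0.05 in *apob-S* and 0.06 in *apob-M*), nor that of LRP2BP, which binds the endocytic receptor megalin (dd_Smed_v6_31415_0_1, -0.12 in *apob-S* and -0.09 in *apob-M*), passed in either group (adjusted p = 0.536 to 0.871, edgeR).

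A wider list held 26 transcripts annotated to cholesterol import, absorption or transport, without *ldlr-1* and the *apob* genes. In *apob-S* 3 rose and 9 fell, with a median log2 fold change of -0.007 beside -0.00269 over all tested transcripts. In *apob-M* 0 rose and 7 fell, with a median of -0.0463 beside -0.00252, and between *apob-S* and *apob-M* 2 were higher and 1 lower. Called members made up 46.2% of the list in *apob-S*, beside 29.3% of all, and 26.9% in *apob-M*, beside 15.3%. Between the knockdown groups they made up 11.5%, beside 12% of all. No member rose in both groups. The match of SYT7, a calcium sensor of vesicle fusion (dd_Smed_v6_22061_0_1), was at 7.758, 5.588, 12.44 and 12.2 CPM in *apob-S*, at most 0.5277 CPM in *apob-M* and at most 0.5128 CPM in controls. It reached 1 CPM in the 4 *apob-S* libraries alone and so passed the filter on low values only through that group. Its difference from control in *apob-S* (log2 fold change 5.41) is therefore given as a description, and it is 1 of the 3 members counted as higher there and 1 of the 2 counted as higher in *apob-S* than in *apob-M*. Control libraries held only 1 to 11 counts of it.

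The most negative change of the list in both groups was that of dd_Smed_v6_4411_0_1, at 7.593 ± 1.07 CPM in *apob-S*, 7.483 ± 0.21 in *apob-M* and 20.72 ± 5.36 in controls (SD). Its log2 fold change was -1.46 in *apob-S* (adjusted p = 6.08e-07, edgeR) and -1.47 in *apob-M* (adjusted p = 1.97e-06). Among the members past the threshold, it was followed in *apob-S* by dd_Smed_v6_5175_0_1 (-0.55, adjusted p = 1.28e-06) and in *apob-M* by *npc2* (dd_Smed_v6_73_0_1, -0.40, adjusted p = 0.00188), whose mammalian counterpart moves cholesterol out of lysosomes. In *apob-S* the change of *npc2* was -0.23 (adjusted p = 0.0397, edgeR). A further member, with NPC2 as its best human match (dd_Smed_v6_704_0_1), passed in neither group. Its change was 0.08 in *apob-S* (adjusted p = 0.417, edgeR) and 0.04 in *apob-M* (adjusted p = 0.775, edgeR).

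**Figure D5:**
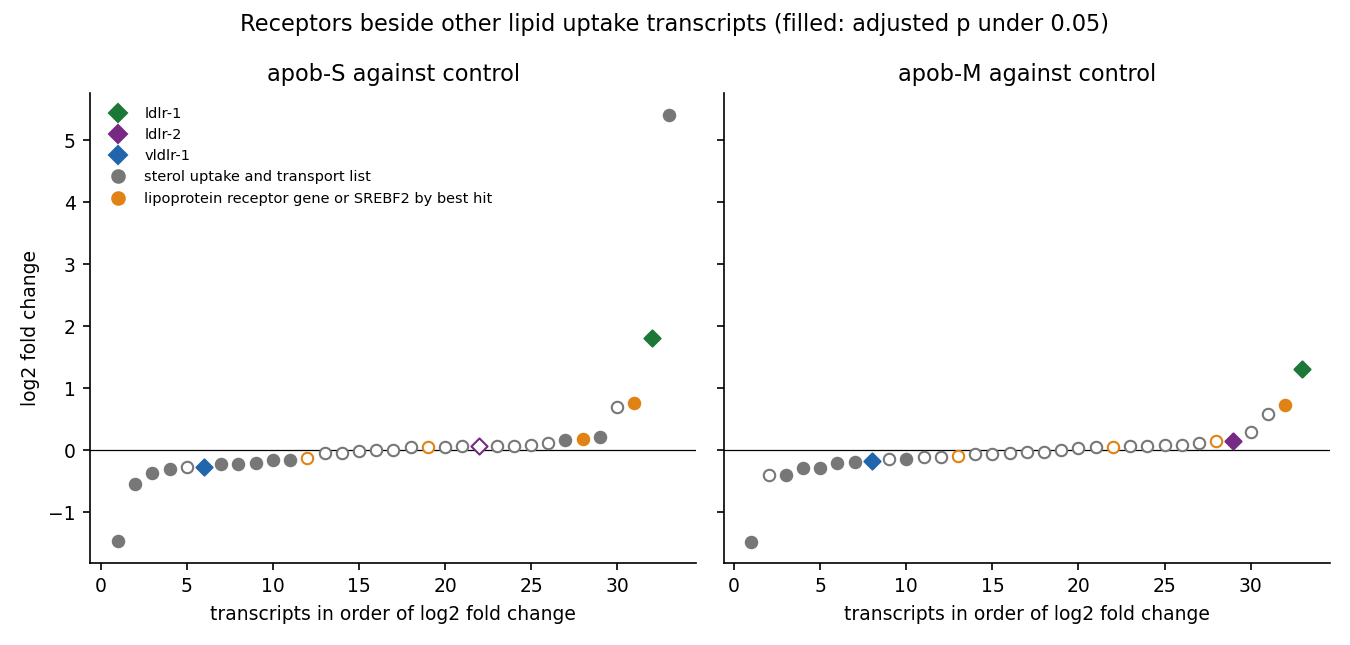
Log2 fold change against control of the 3 receptors (diamonds), the 26 transcripts of the cholesterol uptake and transport list (gray) and the other matches of lipoprotein receptor genes and SREBF2 (orange), ordered by value, for *apob-S* (left) and *apob-M* (right); filled symbols passed an adjusted p of 0.05. *ldlr-1* is the highest in *apob-M* (1.31) and second to the SYT7 match (5.41) in *apob-S* (1.81).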

How the data were processed

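Whole-animal RNA libraries were sequenced, and the deposited values are counts of reads per transcript of the dd_Smed_v6 assembly, made by the authors with Bowtie2 2.3.1 and featureCounts (Subread 1.6.3) after FastQC 0.11.5. Per the study's methods, reads that matched several transcripts or overlapping features were also counted and no strand option is named, so reads shared by similar or antisense transcripts cannot be told apart. The authors' own table of fold changes, CPM and false discovery rates was not used. Each group came from the sample titles, and replicates were separate pools of animals (chi-square per degree of freedom between replicates 2.96 to 139). Library totals were 16839133 to 23039326 counts, and TMM factors 0.919 to 1.04.

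Counts were tested with edgeR 4.0.16 (R 4.3.3, quasi-likelihood, TMM, group as the only term, all 14 libraries, at least 1 CPM in at least 4 libraries), with Benjamini-Hochberg adjustment at 0.05 over 18436 transcripts, after a check on simulated counts. Log2 CPM used a prior count of 2, ratios had 0.5 added to each count, and exact permutation tests were two-sided. Alternatives used DESeq2 1.42.0, limma 3.58.1, edgeR's exact test (the study's own test), other scaling and other filters. Further ones used the 2 compared groups alone, a replicate block and each library left out.

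Members and lists were chosen with earlier results of these data known. Named transcripts were the receptors, *apob-1*, *apob-2*, cell type markers, per receptor the 2 nearest profiles and the nearest with a human match, matches of receptor genes and SREBF2, and per comparison with control the 2 largest and 2 most negative called changes of the cholesterol list; 2 transcripts that the rule names are not reported here. A further member of the list matched to NPC2 was named beside *npc2*. Human matches and list terms came from the study's annotation. Matches were held for 1936 of the tested transcripts. Their names were read from lists that include the study's up- and downregulated transcripts of *apob* knockdown. The pool of matches was therefore not independent of these data. Positions in a genome were not analysed here.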

Additional observations from a re-analysis of the deposited data

Results flagged for a closer look

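In 42 groups of libraries checked (each receptor, ratio, targeted gene and marker in each group), 2 had a library far from the others, where chance gives about 1 in 20. *ldlr-2* in *apob-M* replicate 4 was at 134.3 CPM, against 122.6 to 124.3 CPM in the other *apob-M* libraries. This is the library without which the rise of *ldlr-2* in *apob-M* did not pass. *laminin* in *apob-M* replicate 1 was at 36.07 CPM, against 47.86 to 48.12 CPM in the others of that group.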

How the results depend on the processing

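The calls of *ldlr-1* held in all 3 comparisons under every alternative and without each library (log2 fold change 1.795 to 1.847 in *apob-S* against control, 1.27 to 1.35 in *apob-M* against control, 0.47 to 0.55 in *apob-S* against *apob-M* over the left-out libraries), as did those of *vldlr-1* in *apob-S* against control (-0.28 to -0.26). Other calls depended on the test. With edgeR's exact test, which the study used, neither *ldlr-2* nor *vldlr-1* passed the threshold in *apob-M* against control. Their log2 fold changes were 0.1489 (*ldlr-2*, adjusted p = 0.12) and -0.1795 (*vldlr-1*, adjusted p = 0.0622). With library size alone that of *ldlr-2* was 0.159 (adjusted p = 0.103), with 1795 transcripts called in *apob-M* against control in place of 2819 and 4 of the cholesterol list in place of 7; the cause was not tested. Without each library in turn, *ldlr-2* in *apob-M* against control ran between 0.1177 and 0.1643. The ratios of *ldlr-1* in *apob-S* against *apob-M* ran between 0.5563 and 0.6406 (to *vldlr-1*) and between 0.5292 and 0.6358 (to *ldlr-2*); with 1 library of either group left out, the smallest possible exact permutation p no longer passes. With *apob-M* replicate 3 and *apob-S* replicate 2 left out together, chosen after seeing that dd_Smed_v6_4_1_1 took 7.28% and 5.36% of their counts, these ratios were 0.6389 and 0.6276 (adjusted p = 0.112 each, exact permutation test), and no receptor's edgeR call changed. Replicate numbers are shared by the groups. Correlations of same-numbered deviations were -0.198 to 0.125 (over 0.1 in 1 of 4 pairs of *apob-S* and control and in 0 of 4 of each other comparison). Those of differently numbered libraries were -0.216 to 0.239. With 4 pairs per comparison, this does not settle whether the numbers pair libraries. With the replicate number as a block, 4670 transcripts were called in *apob-S* against control in place of 5398, 2102 in *apob-M* against control in place of 2819 and 2127 in *apob-S* against *apob-M* in place of 2219, and no receptor's call changed. At 534 counts or more per library, depth did not limit the differences of *ldlr-1*; p-values cover the spread between pools of animals in 1 experiment.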
